A study of Mus musculus with 10 samples.

Results

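Methylation of lysine 9 of histone H3 (H3K9) marks silent chromatin, and the enzymes that place it, the proteins that read it and the factors that bring them to integrated retroviruses were followed here as a set of 10 genes out of the 18901 listed in the deposited table. The set was listed by name, with earlier results of these data known: *Trim28*, *Setdb1*, *Zfp809*, *Suv39h1*, *Suv39h2*, *Ehmt1*, *Ehmt2*, *Cbx1*, *Cbx3* and *Cbx5*. All 10 were found in the table by symbol, and all 10 passed a filter on low values that asked for 10 or more in 2 or more libraries. Poly(A) RNA was sequenced from 5 mouse lines of a cross of the MF1 and 129 strains, with 2 libraries for each line, and compared to see how reprogramming with recombinant Netrin-1 (rNetrin-1) affects the resulting induced pluripotent stem (iPS) cells. The lines were embryonic fibroblasts (MEF) with a green fluorescent protein reporter at *Oct4*, at passages 2 and 4, a pre-iPS line, 1 clone of 'control' iPS cells, and iPS clones 1 and 2 derived with rNetrin-1. The last 4 were sampled at passages 5 and 25. The reprogrammed cells were made from such MEF with retroviruses carrying Oct4, Sox2, Klf4 and c-Myc and were grown in medium with serum replacement and LIF, while MEF were grown in medium with fetal calf serum. Both passages of a reprogrammed line come from the same clone. A p-value here therefore compares lines, not derivations, and the rNetrin-1 comparison rests on 1 control clone and 2 derived clones.

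In this pathway, KRAB zinc finger proteins such as ZFP809, which recognizes the primer binding site of Moloney-type retroviruses, recruit the corepressor TRIM28 (KAP1). TRIM28 brings in SETDB1, which trimethylates H3K9, and heterochromatin protein 1 (HP1), encoded as 3 paralogs by *Cbx1*, *Cbx3* and *Cbx5*, binds that mark. SUV39H1 and SUV39H2 trimethylate H3K9 at pericentric heterochromatin, and EHMT1 (GLP) and EHMT2 (G9a) act as a pair on H3K9 mono- and dimethylation in euchromatin. Pluripotent stem cells are known for silencing retroviral vectors through TRIM28, and H3K9 methylation is known as a barrier at which partly reprogrammed cells stall.

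Of the 10 genes, *Trim28* and *Zfp809* stood furthest below the iPS lines in pre-iPS, and the sequence ahead of a RefSeq start of each is shown for that reason (GRCm38.p6, plus strand, 250 bases, 5′ to 3′, CpG dinucleotides in capitals). The *Trim28* stretch lies at chr7:13023902-13024151. The *Zfp809* stretch belongs to the first of its 2 RefSeq starts and lies at chr9:22225453-22225702.
Trim28: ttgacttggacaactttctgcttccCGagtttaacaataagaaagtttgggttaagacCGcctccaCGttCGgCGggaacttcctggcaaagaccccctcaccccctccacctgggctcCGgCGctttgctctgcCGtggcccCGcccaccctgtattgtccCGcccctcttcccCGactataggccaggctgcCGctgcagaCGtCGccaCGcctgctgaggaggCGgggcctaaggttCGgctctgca
Zfp809: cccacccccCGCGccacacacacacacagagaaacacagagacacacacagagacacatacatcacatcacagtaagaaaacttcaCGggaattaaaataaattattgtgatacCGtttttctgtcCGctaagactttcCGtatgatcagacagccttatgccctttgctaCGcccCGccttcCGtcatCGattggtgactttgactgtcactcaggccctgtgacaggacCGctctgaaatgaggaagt
The *Trim28* stretch held 17 CpG and the *Zfp809* stretch 11, against a median of 6 over 32851 mouse promoter stretches of this length. All 10 genes were matched in the promoter table, with 15 starts in all and 7 to 36 CpG per start. A GC box, GGGCGG on either strand, was present ahead of at least 1 start in 9 of the 10 genes, *Zfp809* being the exception. Counted by start, only the 2 *Zfp809* starts and 1 *Cbx3* start of the 15 lacked it. Of all mouse stretches, also counted singly, 32.7% held it. These matches describe the letters in this window only.

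Values are edgeR pseudo-counts, read counts that the authors brought to a common normalized library size, which leaves the sums over all genes unequal. These values could be turned back into whole reads, 38110410 to 52946856 on genes per library. The lowest read number of any of the 10 genes was 197, for *Suv39h2* in MEF at passage 2. Differences were tested with limma on log2(value + 1) over all 10 libraries with 1 mean for each line, p-values were adjusted by Benjamini-Hochberg over 17075 genes, and a gene was called at an adjusted p under 0.05. The libraries stood apart in ways the groups do not state. The fibroblast markers *Col1a1*, *Col1a2*, *Col3a1*, *Thy1*, *Twist1* and *Postn* summed to 2799799 to 2943467 in MEF, 17197 to 18856 in pre-iPS and 16577 to 30924 in iPS libraries, and lines of this study were kept on gelatin or on irradiated MEF. Of 5 macrophage markers, 4 were called higher in MEF than in iPS cells. The 5 summed to 10937 to 10944 in MEF, 892 to 1657 in pre-iPS and 432 to 1268 in iPS libraries, where 2 of the 5 stayed below 10 throughout. *Cd68*, the marker not called (0.11, limma adjusted p = 0.832), made up most of the sum outside MEF. It had 766.6 and 715.1 in MEF, 1564.9 and 852.6 in pre-iPS and 353.5 to 1124.1 in iPS libraries. *Lyz2* was at 6823.9 and 6951.3 in MEF and at 2.88 to 10.9 elsewhere. The 6 pluripotency markers summed to 168 to 185 in MEF, 14913 to 16137 in pre-iPS and 29187 to 71658 in iPS libraries. Singly they were unlike each other in pre-iPS, where 5 of the 6 were called lower than in iPS cells. *Nanog* was at 311 and 349.5 there, *Esrrb* at 31.6 and 15.4 and *Dppa3* at 8.16 and 4.8. *Zfp42*, at 6511.7 and 6100.9, was not called (0.02, limma adjusted p = 0.961). *Xist* had values of 52735 and 52989 in MEF, 16029.9 to 22076 in pre-iPS and clone 2, and 144 to 317 in the control and clone 1. The Y-linked *Ddx3y* was at 358.7 and 387.1 in MEF, at 0.887 to 1.98 in pre-iPS and clone 2 and at 1478 to 1785 in the control and clone 1. Clone 2 thus differed from the control in sex-linked RNA as well as in rNetrin-1. Pre-iPS differed in sex-linked RNA from the control and clone 1. The part of this in the comparisons below was not tested. In bulk RNA, a lower share of a cell type and less RNA per cell cannot be told apart.

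**Figure D1:**
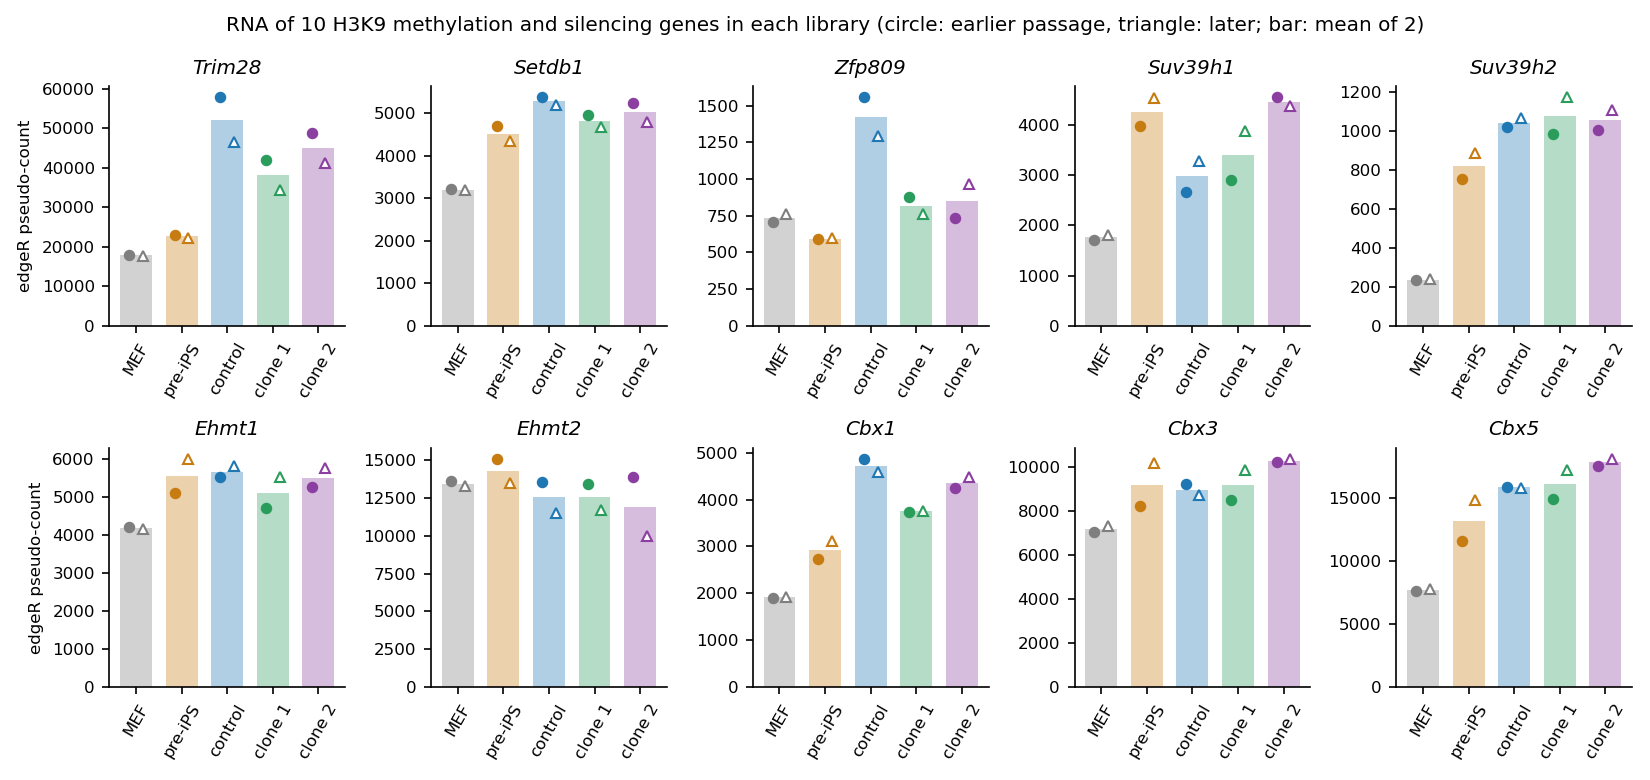
Pseudo-count of each of the 10 genes (linear y axes starting at 0, one panel per gene) in the 5 lines; circles are the earlier passage, triangles the later passage and bars the mean of both. *Trim28* stays at or below 22984 in MEF and pre-iPS and at or above 34295 in iPS libraries, and *Suv39h2* at or below 239.5 in MEF and at or above 755 elsewhere.

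*Trim28* (chromosome 7, 12999114 to 13031035 on GRCm38, protein coding) separated the iPS lines from the other lines. Its values were 18011 and 17752.5 in MEF and 22984 and 22293 in pre-iPS, in the order of the passages here and below. They were 57801 and 46388 in the control. Clone 1 had 42053 and 34295, and clone 2 had 48909.9 and 41193. The 6 iPS libraries thus lay above all 4 MEF and pre-iPS libraries, with a mean of 45107 ± 7985 (SD over 6 libraries, 2 passages of each clone). Pre-iPS cells stood at 50.2% of the iPS mean and MEF at 39.6%. Against the mean of the iPS lines the log2 fold change was −0.98 (SE 0.11, limma adjusted p = 0.000299) in pre-iPS and −1.32 (SE 0.11, limma adjusted p = 6.4e-06) in MEF. MEF and pre-iPS differed by −0.34 (limma adjusted p = 0.0516), a difference not past the threshold, although their libraries did not overlap. It passed with only these lines in the fit (limma adjusted p = 0.00621), without any 1 iPS library (limma adjusted p from 0.0351 to 0.0476) and after quantile normalization, at −0.86 (limma adjusted p = 0.000111). Among the iPS lines the order was control, clone 2, clone 1, and neither neighbouring pair differed past the threshold (limma adjusted p = 0.479 and 0.424).

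*Zfp809* (chromosome 9, 22225714 to 22243354, protein coding) had another order, with the control line alone at the top. MEF had values of 709 and 765, pre-iPS 588 and 599, and the control 1557 and 1295. Clone 1 had 876 and 758.5, and clone 2 had 735 and 969. Both control libraries were thus above every other library, and both pre-iPS libraries were below every other library. The log2 fold change against the iPS lines was −0.74 (SE 0.13, limma adjusted p = 0.00243) in pre-iPS and −0.43 (SE 0.13, limma adjusted p = 0.013) in MEF. The MEF call did not hold without the passage 2 library of MEF (−0.38, limma adjusted p = 0.106). MEF and pre-iPS differed by 0.31 (limma adjusted p = 0.107), in the opposite direction from *Trim28*, and only with these lines alone in the fit did this pass (limma adjusted p = 0.0315). MEF differed from the control by −0.95 (limma adjusted p = 0.000559), and from clones 1 and 2 by −0.15 and −0.20 (limma adjusted p = 0.418 and 0.281). Pre-iPS differed from the control by −1.26 (limma adjusted p = 0.000553) and from clone 2 by −0.51 (limma adjusted p = 0.0369). From clone 1 the difference was −0.46 and not past the threshold (limma adjusted p = 0.0718).

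*Setdb1* (chromosome 3, 95323525 to 95357202, protein coding), the methyltransferase that works with TRIM28, varied less. MEF had values of 3209.8 and 3205, pre-iPS of 4699.9 and 4343, and the 6 iPS libraries of 4677.5 to 5377, with a median of 5080.4. MEF stood below all others, and the pre-iPS libraries overlapped the iPS range. The log2 fold change was −0.65 in MEF (SE 0.06, limma adjusted p = 1.46e-05) and −0.16 in pre-iPS (SE 0.06, limma adjusted p = 0.0791). With the passage as a replicate block the pre-iPS difference passed (limma adjusted p = 0.0405), as it did after quantile normalization (limma adjusted p = 0.0191). Per kb of exons *Trim28* was 8.06 and 8.46 times as high as *Setdb1* in pre-iPS, 9.25 and 9.13 times in MEF, and 12.1 to 17.7 times in iPS libraries, so the ratio of these levels did not overlap between the iPS and the other libraries. Of the *Setdb1* exons, 249 bp or 3.6% overlap *Gm37500* and 75 bp or 1.1% overlap *Cers2*, both on the other strand, and the kit named in the labels does not mark strand.

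Both genes of the SUV39H pair were called lower in MEF than in the iPS lines, and in pre-iPS *Suv39h2* was called lower and *Suv39h1* was not called. *Suv39h2* (chromosome 2, 3455815 to 3475031) had the lowest MEF level relative to iPS of all 10 genes, with values of 233.5 and 239.5 in MEF, 755 and 885 in pre-iPS, and 983 to 1172 in the iPS libraries (median 1042.5). MEF were at 22.3% and pre-iPS at 77.5% of the iPS mean, and none of these 3 groups overlapped. The log2 fold change was −2.15 in MEF (SE 0.11, limma adjusted p = 2.58e-07) and −0.37 in pre-iPS (SE 0.11, limma adjusted p = 0.0243). Without the passage 5 library of pre-iPS the latter was −0.26 and no longer called (limma adjusted p = 0.208). The annotation gives 357 bp, 8.1% of its exons, as shared with *Dclre1c*, and 83 bp, 1.9%, as shared with *Gm13184*, both on the other strand.

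*Suv39h1* (chromosome X, 8061171 to 8074760) had values of 1715 and 1807 in MEF, 3979 and 4555 in pre-iPS, and 2678 and 3287 in the control. Clone 1 had 2901 and 3894, and clone 2 had 4557 and 4380.2. Pre-iPS and clone 2 were thus above the control and clone 1, and MEF were below all. MEF differed from the iPS lines by −1.01 (SE 0.12, limma adjusted p = 6.53e-05). Pre-iPS differed from them by 0.26 (SE 0.12, limma adjusted p = 0.121), which was called with the replicate block (limma adjusted p = 0.0481) and without the passage 25 library of clone 1 (0.34, limma adjusted p = 0.0328), and from the control line alone by 0.52 (limma adjusted p = 0.0264). Among the reprogrammed lines, pre-iPS and clone 2 are those with high *Xist* and next to no Y-linked RNA. MEF had the highest *Xist* of all lines together with Y-linked RNA (*Ddx3y* at 358.7 and 387.1), and the lowest *Suv39h1*. Over the 644 X-linked genes tested, the median log2 fold change of clone 2 against the control was 0.134, beside −0.004 for other genes, and that of pre-iPS against iPS was −0.081, beside 0.003. The part of this in *Suv39h1* was not tested. An antisense gene, *Gm14820*, overlaps 767 bp, 14.6% of the *Suv39h1* exons, so reads of the 2 cannot be told apart there. Per kb of exons, *Suv39h1* was 6.14 and 6.31 times as high as *Suv39h2* in MEF, 4.41 and 4.31 times in pre-iPS, 3.8 and 3.31 times in clone 2, and 2.20 to 2.78 times in the control and clone 1.

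The EHMT pair varied little between the lines. *Ehmt1* (chromosome 2, 24789928 to 24919614) had values of 4213 and 4149.7 in MEF, 5099 and 6002 in pre-iPS, and 4699 to 5810 in the iPS libraries (median 5523.5). MEF lay below the other lines by a small margin, −0.37 against iPS (SE 0.09, limma adjusted p = 0.00363), and pre-iPS overlapped iPS, at 0.03 (SE 0.09, limma adjusted p = 0.809). *Ehmt2* (chromosome 17, 34898469 to 34914052) was the only gene of the 10 not called in MEF. MEF had values of 13625 and 13258, pre-iPS of 15077 and 13509.6, and the iPS libraries of 9961 to 13891 (median 12556), so all groups overlapped. The log2 fold change in MEF was 0.13 (SE 0.13, limma adjusted p = 0.354), and it turned to −0.30 after quantile normalization (limma adjusted p = 0.0367). The deposited values of all genes summed to 55886953 and 56073322 in MEF against 39745507 to 41892877 in the other libraries. In pre-iPS the difference was 0.22 (SE 0.13, limma adjusted p = 0.201), which passed with the replicate block (limma adjusted p = 0.0407) and without the passage 5 library of clone 2 (0.30, limma adjusted p = 0.034). *Ehmt2* was 2.56 to 4.78 times as high as *Ehmt1* per kb of exons over the 10 libraries.

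Among the HP1 genes, *Cbx1* and *Cbx5* were called lower in both MEF and pre-iPS, and *Cbx3* in MEF. *Cbx1* (chromosome 11, 96789127 to 96808640, HP1β) had values of 1909 and 1929 in MEF, 2722 and 3120.6 in pre-iPS, and 4866 and 4579 in the control. Clone 1 had 3734 and 3762, and clone 2 had 4236 and 4472. No 2 of these 5 lines overlapped. The log2 fold change was −1.15 in MEF (SE 0.07, limma adjusted p = 7.54e-07) and −0.55 in pre-iPS (SE 0.07, limma adjusted p = 0.000485). *Cbx5* (chromosome 15, 103191544 to 103239816, HP1α) was at 7598.5 and 7752 in MEF, 11607 and 14816 in pre-iPS, and 14937 to 18114 in the iPS libraries (median 16575). Its differences were −1.11 in MEF (SE 0.09, limma adjusted p = 6.58e-06) and −0.34 in pre-iPS (SE 0.09, limma adjusted p = 0.0221). The latter fell to −0.16 without the passage 5 library of pre-iPS (limma adjusted p = 0.227), and the passage 25 value lay just below the iPS range. *Cbx3* (chromosome 6, 51470360 to 51483704, HP1γ) was at 7023 and 7329 in MEF, 8225 and 10157 in pre-iPS, and 8495 to 10364 in the iPS libraries (median 9535). It was called lower in MEF, at −0.40 (SE 0.09, limma adjusted p = 0.00316), and not in pre-iPS, at −0.05 (SE 0.09, limma adjusted p = 0.706). The annotation names 8 pseudogenes of *Cbx3*, so its level is uncertain where the counting split such reads.

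The balance between the 3 HP1 genes, per kb of exons, therefore differed between lines. *Cbx3* made up 47.6 and 48.2% of their sum in MEF, 41.6% in both pre-iPS libraries and 33.9 to 37.1% in the iPS libraries. *Cbx1* made up 18.1 and 17.8% in MEF, 19.3 and 17.9% in pre-iPS, and 19.8 to 25.6% in the iPS libraries. For both genes the iPS range did not overlap the MEF and pre-iPS values. *Cbx5* made up 34.3 and 34.0% in MEF and 39.1 and 40.4% in pre-iPS, which overlapped the iPS range of 39.8 to 43.1%. These shares are taken within a library and do not depend on the scaling between libraries, and they were not tested.

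**Figure D2:**
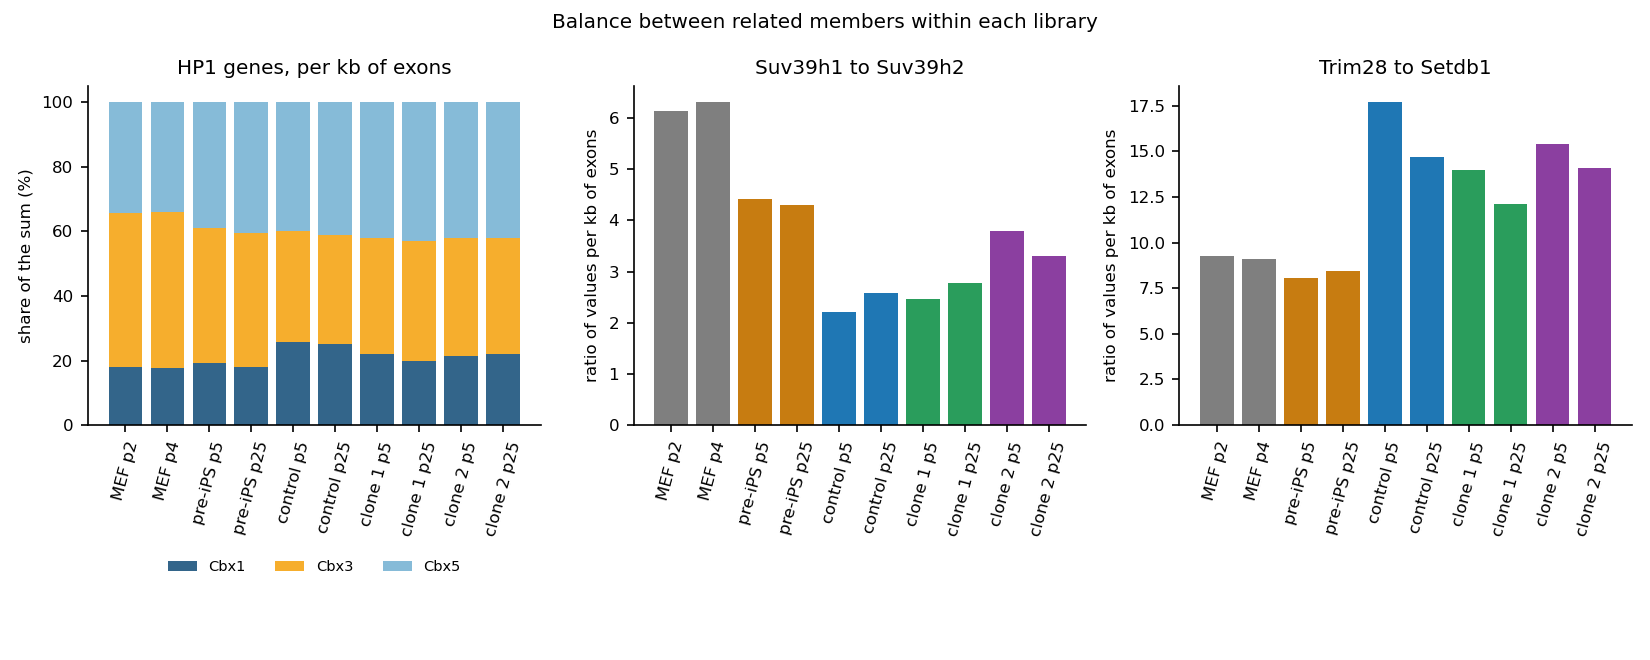
Ratios within each of the 10 libraries, computed from values per kb of exons: left, the share (%) of *Cbx1*, *Cbx3* and *Cbx5* in their sum; middle, *Suv39h1* over *Suv39h2*; right, *Trim28* over *Setdb1* (linear axes from 0, p for passage). The *Suv39h1* ratio is above 6 in MEF and at most 3.8 in iPS libraries, and the *Trim28* ratio is at most 9.25 in MEF and pre-iPS and at least 12.1 in iPS libraries.

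Set side by side, 9 of the 10 genes were called lower in MEF than in the iPS lines and 0 higher, where 41.9% of all genes tested were called lower and 37.4% higher. The median log2 fold change of the 10 was −0.83, against −0.09 over all genes. Of the 9 genes, 5 differed by at least 2-fold, *Suv39h2*, *Trim28*, *Cbx1*, *Cbx5* and *Suv39h1*, while 48.2% of all genes reached this in either direction. In 8 genes the MEF libraries lay below all iPS libraries, and 80.0% of all genes did not overlap between these groups. The comparison of fibroblasts with pluripotent cells also took in 10 proliferation genes such as *Mcm5* and *Pcna*, of which 10 were called lower in MEF, with a median of −1.41. Their part in the lower level of the 10 silencing genes was not tested.

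In pre-iPS cells 5 of the 10 genes were called lower than in iPS cells, *Trim28*, *Zfp809*, *Cbx1*, *Suv39h2* and *Cbx5*, and 0 higher, beside 20.8 and 18.7% of all genes. Of these, *Trim28*, *Zfp809* and *Cbx1* were called under every alternative run other than the 2-fold rule, which called 0 of the 10. No alternative left out the whole control line, and against clone 1 alone *Zfp809* was not called (−0.46, limma adjusted p = 0.0718). The median over the 10 was −0.25, against 0 over all genes. None of the 5 reached 2-fold (0 of 10, against 16.3% of all genes), *Trim28* falling just short. The same 5 genes lay below all iPS libraries without overlap, where 41.8% of all genes did not overlap in either direction. With the passage as a replicate block, in a fit without MEF, 8 of the 10 were called, 6 lower and 2 higher. *Setdb1* joined the lower genes, and *Suv39h1* and *Ehmt2* were higher. Of all 17075 genes this fit called 8161 in either direction, beside 6758 in the main fit. Of the proliferation genes, 8 of 10 were called lower, with a median of −0.51, and their part was not tested.

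Between MEF and pre-iPS, 7 of the 10 genes were called lower in MEF and 0 higher, beside 36.4 and 34.2% of all genes. The largest differences were those of *Suv39h2* at −1.79 (SE 0.13, limma adjusted p = 3.98e-06), *Suv39h1* at −1.27 (SE 0.15, limma adjusted p = 7.67e-05) and *Cbx5* at −0.77 (SE 0.12, limma adjusted p = 0.000335). *Cbx1* and *Setdb1* differed by −0.60 and −0.49 (limma adjusted p = 0.000217 and 0.000427). *Ehmt1*, at −0.40 (limma adjusted p = 0.00832), was not called without the passage 25 library of pre-iPS (−0.29, limma adjusted p = 0.062). *Cbx3*, at −0.35 (limma adjusted p = 0.0196), was not called without that library (−0.20, limma adjusted p = 0.137), without the passage 2 or passage 4 library of MEF (limma adjusted p = 0.1 and 0.0585), or with only these lines in the fit (limma adjusted p = 0.0616). *Ehmt2*, at −0.09 (limma adjusted p = 0.639), was called only after quantile normalization, at −0.53 (limma adjusted p = 0.00896). The 7 genes called are *Setdb1*, the SUV39H pair, *Ehmt1* and the 3 HP1 genes, while *Trim28* and *Zfp809*, below the iPS mean in both lines, did not pass the test between them.

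**Figure D3:**
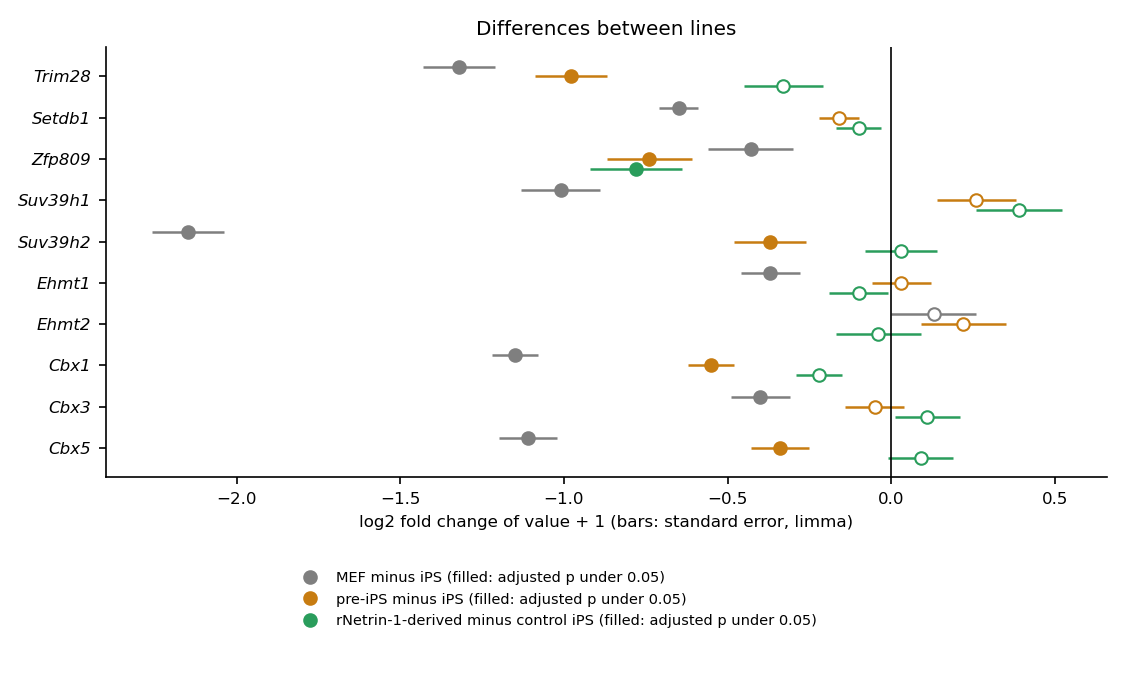
Log2 fold change on the scale of log2(value + 1) (x axis) with its standard error for each gene in MEF against iPS, pre-iPS against iPS and rNetrin-1-derived against control; filled points are called at an adjusted p under 0.05. The MEF points reach −2.15 for *Suv39h2*, the pre-iPS points −0.98 for *Trim28*, and *Zfp809* at −0.78 is the only filled point of the rNetrin-1 comparison.

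Between the rNetrin-1-derived clones and the control line, 1 of the 10 genes was called, *Zfp809*, where 4.08% of all genes were called in either direction. Its mean was 835 ± 109 (SD over 4 libraries, 2 passages of each clone) in the derived libraries and 1426 ± 185 (2 passages of 1 clone) in the control. The difference on the log2 scale was −0.78 with an SE of 0.14 (limma adjusted p = 0.0207), and it was lower in 4 of 4 derived libraries. In clone 1 it was −0.80 (limma adjusted p = 0.0424) and in clone 2 −0.75 (limma adjusted p = 0.0377), in comparisons that called 2.48 and 4.15% of all genes and that share the control libraries. The size kept its sign in every alternative, but the call did not hold with only the iPS lines in the fit (limma adjusted p = 0.0952). Nor did it hold without either MEF library (limma adjusted p = 0.0502 and 0.0501), without the passage 5 or passage 25 library of the control (−0.64 and −0.91, limma adjusted p = 0.139 and 0.0693) or without the passage 25 library of clone 1 (−0.72, limma adjusted p = 0.0535). For clone 1 alone the call was lost without any 1 library of MEF, pre-iPS, the control or clone 1 itself (−0.93 to −0.67, limma adjusted p from 0.0674 to 0.21). For clone 2 alone it was lost without any 1 library of MEF, pre-iPS or the control, or without its own passage 5 library (−0.88 to −0.55, limma adjusted p from 0.0589 to 0.145). With only the lines compared in the fit, these were at limma adjusted p = 0.149 and 0.196.

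*Trim28* was at −0.33 over both clones (SE 0.12, limma adjusted p = 0.193) and −0.45 in clone 1 (SE 0.14, limma adjusted p = 0.143). The passages pair the libraries, and with the passage as a replicate block both differences were called (limma adjusted p = 0.0417 and 0.0306), which brought the number of the 10 genes called to 2 in each comparison. This fit left out MEF and called 1327 and 1009 of all 17075 genes, beside 697 and 424 in the main fit. *Suv39h1* in clone 2 was at 0.59 above the control (SE 0.15, limma adjusted p = 0.0695), and it was called with the block (limma adjusted p = 0.023) and without either library of clone 1 (limma adjusted p = 0.04 and 0.0406). *Cbx1* was at −0.22 (SE 0.07, limma adjusted p = 0.147), and its 4 derived libraries, like those of *Zfp809*, lay below both control libraries. Such separation, in 2 of the 10 genes, was seen in 21.3% of all genes. *Setdb1*, *Suv39h2*, *Ehmt1*, *Ehmt2*, *Cbx3* and *Cbx5* ranged from −0.10 to 0.11 (limma adjusted p from 0.484 to 0.932). Between the clones limma called 0 of the 10 genes, beside 1.59% of all genes, and edgeR on the recovered reads called 0. At an unadjusted limma p under 0.05 there were 2 of the 10 genes, beside 2831 of all 17075. The largest difference between the clones was that of *Suv39h1*, 0.41 higher in clone 2 (SE 0.15, limma adjusted p = 0.229).

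Time in culture was compared as passage 25 against passage 5 within the 4 reprogrammed lines, using 8 libraries and a block for each line, where 10.9% of all genes were called. *Ehmt2* was the only gene of the 10 called. It went from 15077 to 13509.6 in pre-iPS, from 13554 to 11510.5 in the control, from 13389.6 to 11723 in clone 1 and from 13891 to 9961 in clone 2, lower in 4 of 4 lines. The log2 fold change was −0.27 (SE 0.06, limma adjusted p = 0.0396), and it was not called without any 1 of the 8 libraries (limma adjusted p from 0.0706 to 0.147) or without the line block (limma adjusted p = 0.41). With the line as a block, a library left out takes its whole line out of the comparison, so these fits leave out lines. *Trim28* was lower in 4 of 4 lines as well, by 0.04 in pre-iPS and 0.25 to 0.32 in the iPS lines on the log2 scale, and did not pass the test (−0.23, SE 0.06, limma adjusted p = 0.0567), except with a filter on a mean value of at least 50 (limma adjusted p = 0.0484). *Ehmt1* was higher in 4 of 4 lines, at 0.17 (SE 0.05, limma adjusted p = 0.0771), and was called after quantile normalization (limma adjusted p = 0.044). The *Ehmt2* to *Ehmt1* ratio per kb of exons was accordingly lower at passage 25 in each line, for example 2.56 against 3.89 in clone 2 and 3.33 against 4.37 in pre-iPS. *Zfp809* had no common direction, with −0.27 in the control and 0.40 in clone 2.

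**Figure D4:**
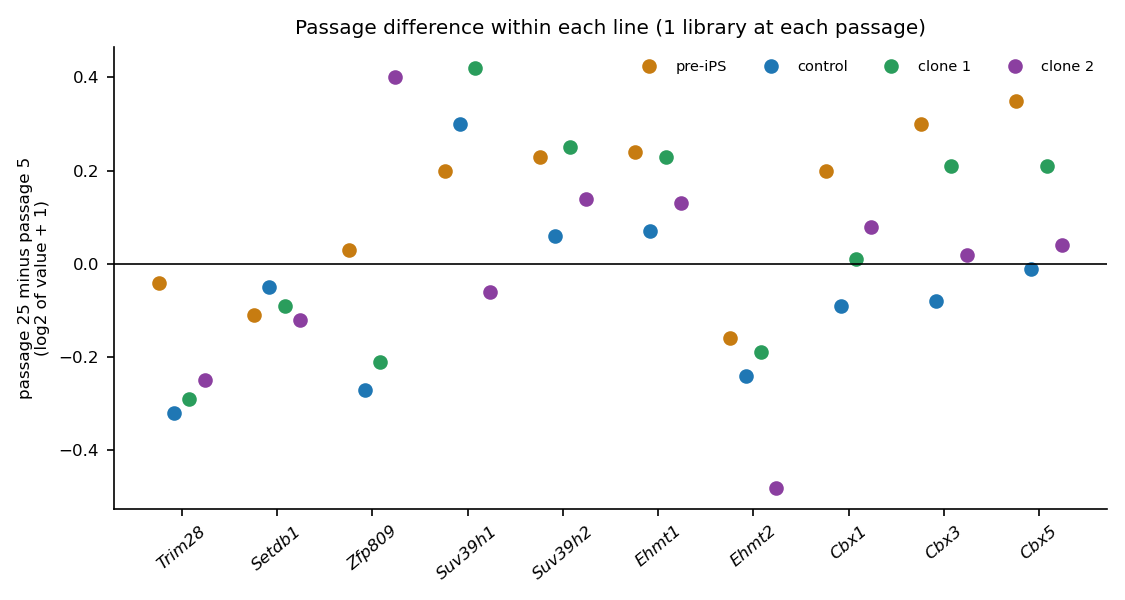
Difference between passage 25 and passage 5 within each line, on the log2(value + 1) scale (y axis), for the 10 genes (x axis); each point is 1 line with 1 library at each passage. All 4 points lie below 0 for *Trim28*, *Setdb1* and *Ehmt2*, and all 4 above 0 for *Suv39h2* and *Ehmt1*.

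Other genes that act with this machinery were followed as lists, also chosen with earlier results of these data known. Of 12 genes of provirus silencing and histone deposition, 10 were called lower in pre-iPS than in iPS cells and 0 higher, beside 20.8 and 18.7% of all genes, with a median of −0.36 against 0 over all genes. They were led by *Rif1* at −1.0 (limma adjusted p = 0.000394), *Smarcad1* at −0.74 (limma adjusted p = 0.00418), the chromatin remodeller known to act on proviruses with TRIM28, *2810474O19Rik* (*Resf1*) at −0.71 (limma adjusted p = 0.000852), and *Morc3* and *Chaf1b*, a subunit of the histone chaperone CAF-1, at −0.56 each (limma adjusted p = 0.00472 and 0.000557). In MEF 11 of the 12 were lower, beside 41.9% of all genes, with *Rif1* at −2.43 and *Uhrf1*, which links H3K9 methylation to DNA methylation, at −2.16 (limma adjusted p = 2.66e-07 and 3.56e-08). *Yy1* was the one not called in MEF, and *Yy1* and *Pa2g4* those not called in pre-iPS. The 10 proliferation genes had medians of −0.51 in pre-iPS and −1.41 in MEF, beside −0.36 and −0.83 for this list. Their part in the lower level of this list was not tested.

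Of 10 partners of SETDB1 and TRIM28, 4 were lower and 2 higher in pre-iPS, where 20.8% of all genes were lower and 18.7% higher. In MEF 7 were lower and 1 higher, where these shares were 41.9 and 37.4%. *Zfp57*, the KRAB zinc finger protein of imprinted regions, differed in direction from *Zfp809* in pre-iPS and shared its direction in MEF. It was at 7868.5 and 9235 in pre-iPS, above all iPS libraries (3697 to 7827), or 0.64 on the log2 scale with an SE of 0.10 (limma adjusted p = 0.00132). In MEF it was called lower, at −1.53 (limma adjusted p = 1.1e-06). Over both rNetrin-1-derived clones it was called higher than in the control, at 0.62 (SE 0.10, limma adjusted p = 0.0177). Tested singly, clone 2 was called, at 0.86 (limma adjusted p = 0.00903), and clone 1 was not, at 0.38 (limma adjusted p = 0.157), while the difference between the clones did not pass (0.49, limma adjusted p = 0.0975). The corepressor *Trim24*, a relative of *Trim28*, was at −0.75 in pre-iPS and −1.07 in MEF (limma adjusted p = 0.00165 and 4.12e-05). *Zfp819* was at −1.37 in pre-iPS (limma adjusted p = 0.0254), and in MEF, where it was also called lower, its values were only 1.31 and 4.19 against 89.3 to 375 in the iPS libraries, so that a fold change depends on the pseudocount. *Atf7ip*, the cofactor of SETDB1, was not called in pre-iPS and was higher at passage 25 (0.32, limma adjusted p = 0.0294). Of 4 genes of the HUSH complex, which also works with SETDB1, 2 were lower and 0 higher in both comparisons, beside 20.8% of all genes lower in pre-iPS and 41.9% in MEF. They were *D14Abb1e* (TASOR) at −0.76 and *Mphosph8* (MPP8) at −0.32 in pre-iPS (limma adjusted p = 0.00232 and 0.0177).

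Of 7 further H3K9 methyltransferases and partners, 1 was lower and 1 higher in pre-iPS, *Prdm16* at −1.19 and *Cdyl* at 0.41 (limma adjusted p = 0.0143 and 0.00285), beside 20.8% of all genes lower and 18.7% higher. In MEF 3 were higher and 1 lower, beside 37.4 and 41.9%, led by *Mecom* at 4.99 and *Prdm16* at 2.42 (limma adjusted p = 1.77e-07 and 7.5e-05). Of 10 H3K9 demethylases, which remove the mark, 2 were lower and 4 higher in pre-iPS, beside the same 20.8 and 18.7%, so that the lower count is at the level of all genes. In MEF 6 were lower and 2 higher, beside 41.9 and 37.4%. *Kdm4d* had values of 8.64 and 11.2 in pre-iPS and 5.32 and 8.17 in MEF, against 48.6 to 289 in the iPS libraries. On the log2 scale this was −3.54 and −4.05, each with an SE of 0.29 (limma adjusted p = 5.02e-05 and 2.22e-06). Over both rNetrin-1-derived clones it was lower than in the control (−1.56, SE 0.31, limma adjusted p = 0.0312). Singly, clone 2 was called (−1.98, limma adjusted p = 0.0233) and clone 1 was not (−1.14, limma adjusted p = 0.148), and the clones did not differ past the threshold (−0.84, limma adjusted p = 0.289). *Jhdm1d* (*Kdm7a*), *Kdm3b*, *Phf2* and *Kdm4a* were higher in pre-iPS, by 0.59, 0.44, 0.42 and 0.39 on the log2 scale (limma adjusted p = 0.0071, 0.00257, 0.0213 and 0.00164). At passage 25 *Kdm3a* and *Kdm4b* were lower (−0.40 and −0.34, limma adjusted p = 0.0116 and 0.0279).

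**Figure D5:**
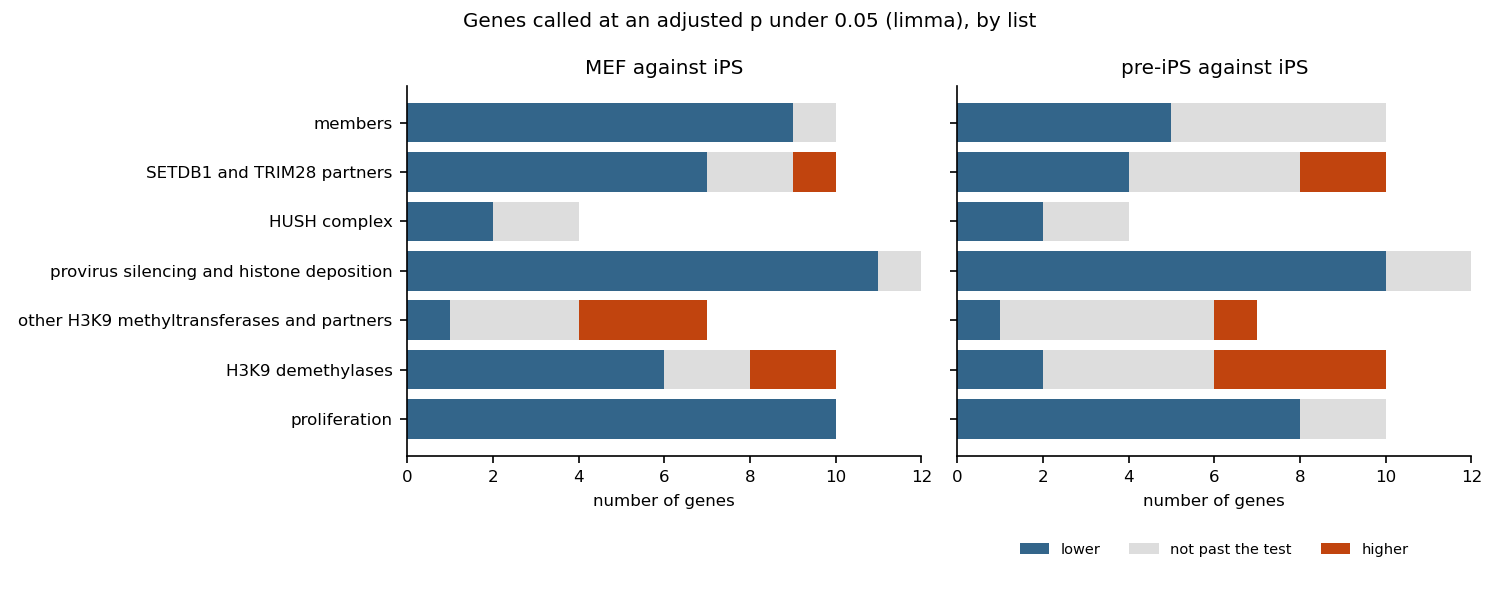
Number of genes (x axis) called lower, not past the test or called higher in MEF (left) and pre-iPS (right) against the iPS lines, for the 10 genes described here (members) and 6 related lists. Every list but the other methyltransferases has more lower than higher genes in MEF, and in pre-iPS the demethylases have 4 higher and 2 lower.

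Over the 10 libraries, the gene whose log2 values were most like those of *Trim28*, among 14042 genes with a mean value of at least 50, was *Daxx*, with Pearson's r of 0.992, and 0.994 over the 8 libraries without MEF. DAXX is a histone H3.3 chaperone, and *Daxx* is on the list of provirus silencing above. *Slc25a31* and *Fam117a* followed at 0.986 and 0.985. For *Setdb1* they were *Llgl2*, *Nip7* and *Nudc*, at 0.995, 0.994 and 0.994. For *Zfp809* they were *Dcbld1*, *Hvcn1* and *Ccdc82*, at 0.980, 0.957 and 0.953, and none of the 3 was among those most like *Trim28*. Of the 45 pairs among the 10 genes, 35 had a positive r over the 10 libraries, with a median of 0.72, and 28 over the 8 libraries without MEF, with a median of 0.28. The points are libraries of 5 lines that share a line, so these values describe the libraries and carry no p.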

How the data were processed

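RNA-seq libraries of 5 mouse lines, 2 per line, were compared; groups came from the labels. TruSeq v2 libraries were read as 50-nucleotide single reads. The submitters' processing notes name mm10, CASAVA 1.8.2, TopHat2 2.0.8b and HTSeq 0.5.3p9. The deposited values are a normalized signal: with edgeR, the authors turned read counts into pseudo-counts that share 1 normalized library size. Their sums were 55886953 and 56073322 in MEF and 39745507 to 41892877 elsewhere. Levels in MEF relative to the other lines rest on this scaling. Whole reads were recovered from 100% of the values in each library (tolerance 0.1 read), 1 read being worth 0.888 to 1.18.

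Of 18901 genes, 17075 passed the filter (10 or more in 2 or more libraries). limma 3.58.1 in R 4.3.3 (lmFit, eBayes with a trend) was run on log2(value + 1), which understates the change of low genes, with 1 mean for each of 5 lines and Benjamini-Hochberg adjustment over all genes tested; called means an adjusted p under 0.05. Passage was tested over 8 libraries with the line as a block. Passages 5 and 25 pair the libraries: their deviations from line means correlated at 0.235 to 0.504 over 6 pairs of lines. Alternatives were other pseudocounts (5, 0.5), filters, scalings, a 2-fold rule, fewer lines in the fit, the passage as a replicate block and leaving out each library, where a lone library is assumed to vary like the other lines. The fit with the replicate block left out MEF. In the passage test, leaving out 1 library took its whole line out of the comparison. edgeR 4.0.16 (quasi-likelihood) on recovered reads was added after seeing the data. The fits of pre-iPS against iPS and of passage were run on simulated counts drawn independently for each library. That setting lacks the correlation between lines given above and does not cover the other comparisons.

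The 10 genes and the lists were chosen with earlier results of these data known. Named genes were all 10, up to 6 called genes per list by size of change (others of a list may be named after them), and for *Trim28*, *Setdb1* and *Zfp809* the 3 genes with the highest Pearson r. Exon lengths and positions are from GENCODE M21 (GRCm38), in which 98.9% of symbols were located, and promoters from RefSeq (GRCm38.p6).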

Additional observations from a re-analysis of the deposited data

How the results depend on the processing

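Of 44 single log2 fold changes recomputed under the alternatives, 741 of 808 values kept their direction and their side of the threshold, and none of the 25 called differences changed direction (0). Of these, 16 were called under every alternative other than the 2-fold rule, which was applied to the counts below. Among the 44, *Ehmt2* in MEF reversed after quantile normalization (−0.30). In pre-iPS against iPS, *Ehmt1* reversed after quantile normalization (−0.004), without the passage 25 library of pre-iPS (−0.09) and without the passage 5 library of clone 1 (−0.009). There *Cbx3* reversed without the passage 5 library of pre-iPS (0.10). Over all libraries left out in turn, *Ehmt1* ranged from −0.09 to 0.15 and *Cbx3* from −0.20 to 0.10. Outside the 44, other differences that were not called changed sign under some alternative. Examples are *Suv39h1* in clone 1 against the control (−0.03 to 0.39) and *Zfp809* for passage (−0.15 to 0.07).

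The number of the 10 genes called depended on the rule and the fit. With a 2-fold rule added, 5 were called in MEF against iPS, 2 in MEF against pre-iPS and 0 in each of pre-iPS against iPS, both rNetrin-1-derived clones against the control, clone 1 or clone 2 against the control, and passage. With the passage as a replicate block and MEF left out, 8 were called in pre-iPS against iPS and 2 for both clones, clone 1 and clone 2 against the control. In these comparisons that fit called 8161, 1327, 1009 and 1469 of all 17075 genes, beside 6758, 697, 424 and 709 in the main fit. It changed no other count of the 10 genes by over 1.5 times. With only the lines compared in the fit, 0 were called for both clones, clone 1 and clone 2. For passage, 2 were called with the filter on mean values of 50 or more, 2 after quantile normalization and 0 without the line block. Leaving out 1 library gave 8 to 9 in MEF against iPS, 3 to 6 in pre-iPS against iPS, 5 to 8 in MEF against pre-iPS, 0 to 1 for both clones, 0 to 1 for clone 1, 0 to 2 for clone 2, 0 between the clones and 0 for passage. Where no value above shows the cause, the cause was not tested. edgeR on the recovered reads changed none of the 44 calls.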
